A study of Mus musculus with 4 samples.

Results

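The core pluripotency network and its partners were examined as 10 genes, Nanog, Pou5f1, Sox2, Sall4, Utf1, Tdgf1, Lin28a, L1td1, Trim71 and Dppa5a, out of 24873 genes in the table of the whole series. The genes were chosen by symbol with their measured tamoxifen and control values already known, so their levels and fold changes describe the libraries and carry no test. All 10 symbols were listed. Tdgf1 was matched to the annotation through its other name, Cripto. RNA-Seq had been performed on day 9 on CD31+CD45- cells sorted from the cerebrum of mice that carried VE-cadherin cre/ERT2 and Mgp fl/fl. In these C57BL/6J mice a recombinase that tamoxifen activates is driven by the promoter of VE-cadherin, a junction protein of endothelial cells (ECs), and both copies of Mgp, an inhibitor of bone morphogenetic proteins, carry its target sites. The tamoxifen group (labelled Treated, 2 libraries) was injected at 10 weeks of age with 75 mg/kg on 5 consecutive days, and the control group (labelled Ctrl, 2 libraries) had the same genotype without tamoxifen. Each library holds cells pooled from 3 mice. The table heads the columns of the tamoxifen libraries with the letter A, which no label of these samples uses, so their assignment is an assumption on which the direction of every difference rests. It was not made from the values. The labels name the cells as brain tdTomato+, after a red fluorescent reporter, rather than by CD31 and CD45. The comparison asked which genes differed in these cells after tamoxifen, given to delete Mgp. No library came from mice given tamoxifen without the target sites in Mgp. Exposure to tamoxifen, activity of the recombinase and loss of Mgp therefore cannot be told apart in these libraries.

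Pluripotency is the ability of the early embryo's epiblast, and of embryonic stem cells made from it, to form every tissue of the body. The transcription factors NANOG, OCT4 (encoded by Pou5f1) and SOX2 bind many regulatory sites together and maintain one another's transcription, and SALL4, UTF1 and the cell-surface protein CRIPTO belong to the same expression program. LIN28A, TRIM71, L1TD1 and DPPA5A are RNA-binding proteins of the same cells, and LIN28A and the let-7 family of miRNAs repress each other. In the adult brain these genes are known to be silent in most cells, with the exception of Sox2, which neural stem cells and glia express.

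A sequence upstream of Nanog is shown because SOX2 and OCT4 are known to bind composite sites of this kind. Among the 250 bases upstream of the annotated start of the canonical transcript of each of 21757 protein-coding genes (GRCm39, GENCODE M39, both strands), the SOX core CATTGT followed by 1 base and the octamer core ATGCAAA was found only upstream of Nanog, that is in 0.0046% of genes. It lies 101 to 114 bases upstream of the start, on the minus strand, at chr6:122684365-122684394 in the 30 bases printed here, which also fall in the first exon of another annotated Nanog transcript. The plus strand is printed, 5′ to 3′, with the composite in capitals.
Nanog: cagcttctTTTGCATTACAATGtccatggt
The octamer core alone was found upstream of 4.03% of all genes and of 1 of the 10 genes, and the SOX core alone upstream of 9.41% and of 2 of the 10 (Nanog and Lin28a). Both counts include the composite of Nanog. The GC box GGGCGG was found upstream of 36.3% of all genes and of Sox2, Utf1 and Trim71, and the TATA box TATAAA upstream of 11.9% and of none of the 10. A match describes letters in this window and not a bound site.

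Matches to the let-7 seed are shown for the members because LIN28A and let-7 repress each other. Of 11 mouse let-7 family miRNAs in the RefSeq table, 10 share the seed GAGGUAG at bases 2 to 8, given in capitals in these mature sequences.
mmu-let-7a-5p: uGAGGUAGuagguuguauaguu
mmu-let-7g-5p: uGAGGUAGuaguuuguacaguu
The complement of that seed, CTACCTC, was searched after the coding sequence of the canonical transcripts. It occurs 4 times in Trim71, 2 times in Lin28a and 1 time in Sall4, and not in the other members. Among all 21757 transcripts, 9.50% hold at least 1 match and 1.21% hold 2 or more. These shares are not matched for length. The searched part has a median of 1005 bases over all transcripts. It has 5515 bases in Trim71, 2778 in Lin28a and 1700 in Sall4, and 125 to 1120 in the other members. The match of Sall4, both of Lin28a and the first 2 of Trim71 are given 5′ to 3′ with the seed match in capitals.
Sall4 match 1: gggctttaatttatCTACCTCa
Lin28a match 1: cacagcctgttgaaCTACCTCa
Lin28a match 2: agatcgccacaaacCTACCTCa
Trim71 match 1: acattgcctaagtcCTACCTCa
Trim71 match 2: gtgataatttctatCTACCTCa
These matches describe letters and not measured targets. Mature let-7 was not analysed here.

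Reads on genes came to 37475154 and 41025014 in controls and to 35387438 and 49799321 after tamoxifen. The deposited values are normalized counts, in which 1 read equals 1.37 and 1.25 in controls and 1.08 and 0.719 after tamoxifen. Mgp had 1094 and 1352 normalized counts in controls and 945 and 909 after tamoxifen (log2 fold change -0.39, SE 0.18, limma, adjusted p = 0.0986), a difference that did not pass the test. All 12 endothelial markers were called lower after tamoxifen, with summed normalized counts of 1118435 to 1121438 in controls and 98488 to 194486 after tamoxifen. Pecam1 (CD31) and Cdh5 (VE-cadherin) were present in every library, at no less than 8973 and 8508 normalized counts. Fewer cells of a type and less RNA per cell cannot be told apart in these bulk libraries.

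All 10 genes were low in both controls and high in both tamoxifen libraries, without overlap between the groups. Together they held 239.7 and 285.4 normalized counts in controls, and 64166 and 52945 after tamoxifen. Of all 20485 genes tested (mean of at least 10 normalized counts), 43.1% had their 2 tamoxifen values above their 2 control values, 28.6% were called higher and 16.0% were called lower by limma, with limits of 0.05 on the adjusted p and of 1 on the size of the log2 fold change. The 10 genes were all called higher, which their selection fixed. All 10 passed the filter on low values, 5 of them only through the tamoxifen libraries. On the log2 scale the fold changes of the members had a median of 8.93, beside 0.05 for all genes tested. With all libraries scaled to equal totals, the median of all genes moved to 0.54 and that of the 10 genes to 9.38.

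**Figure D1:**
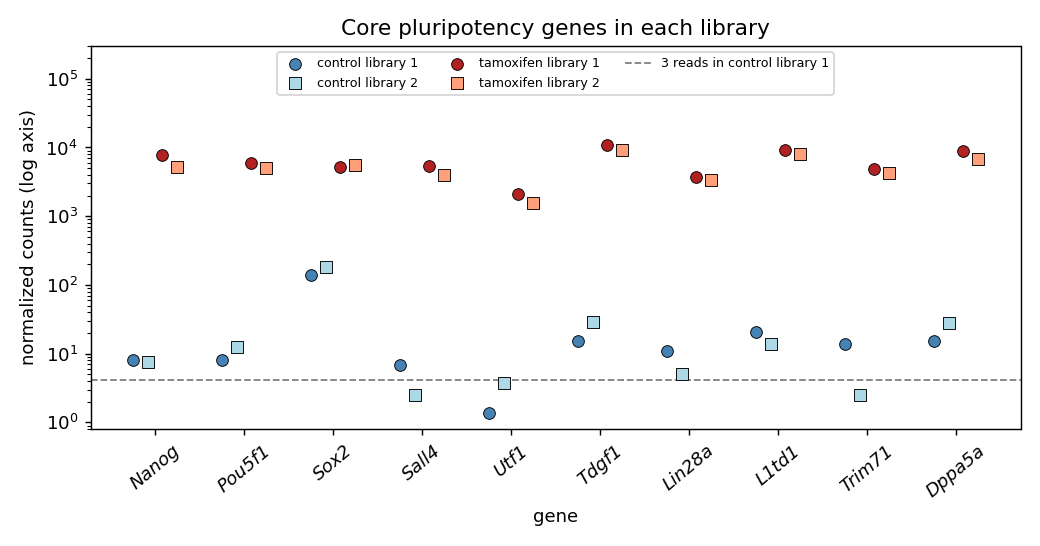
Normalized counts of the 10 genes in each library on a log axis, with circles for the first and squares for the second library of each group and a dashed line at the value of 3 reads in control library 1. The tamoxifen libraries lie between 1580.1 and 11019 for every gene, and in controls only Sox2 lies above 28.8.

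Nanog (ENSMUSG00000012396.14, chr6:122679780-122691601, plus strand, GRCm39), the homeodomain factor that stabilizes the pluripotent state, had 8.22 and 7.51 normalized counts in controls, from 6 reads in each, and 7823 and 5241 after tamoxifen. Of the 10 genes it varied most between the tamoxifen libraries, relative to its level. The log2 fold change was 9.50 (SE 0.31), and the ratio of the summed reads, each scaled by its library divisors, was 799 (95% exact interval 457 to 1547, counting error only). This was the 3rd largest log2 fold change among 20485 genes.

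Pou5f1 (ENSMUSG00000024406.18, chr17:35816789-35822274, plus strand), which encodes the POU factor OCT4, had 8.22 and 12.5 normalized counts in controls and 6020.5 and 5039.5 after tamoxifen. The log2 fold change was 8.95 (SE 0.31), with a read ratio of 519 (319 to 908, the same kind of interval). The control values rest on 6 and 10 reads, so most of the width of these intervals comes from the control side.

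Sox2 (ENSMUSG00000074637.8, chr3:34704554-34706610, plus strand, a single exon), the HMG-box partner of OCT4, stood apart from the other members. It had 140 and 181 normalized counts in controls, from 102 and 145 reads, and 5176 and 5511 after tamoxifen. Its log2 fold change was 5.06 (SE 0.20), the 980th of 20485, with a read ratio of 33.3 (29.4 to 37.9). It was the member with the highest control level, also per kilobase of exon, and the one member with more normalized counts in the second tamoxifen library than in the first.

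Sall4 (ENSMUSG00000027547.18, chr2:168590252-168609863, minus strand), a zinc-finger factor that binds OCT4 and NANOG, had 6.85 and 2.50 normalized counts in controls, from 5 and 2 reads, and 5294 and 3968 after tamoxifen. Its log2 fold change of 9.77 (SE 0.46) was the 2nd largest of all genes tested, and the read ratio was 982 with a wide interval of 477 to 2444. Without control library 1 the log2 fold change was 10.35, and without control library 2 it was 9.19. Utf1 (ENSMUSG00000047751.11, chr7:139523649-139525025, plus strand), a chromatin-bound factor of embryonic stem cells, had 1.37 and 3.75 normalized counts in controls, from 1 and 3 reads. It had 2135 and 1580.1 after tamoxifen. The read ratio was 689 (269 to 2529), and the fitted log2 fold change of 9.10 (SE 0.50) rests on these few control reads.

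Tdgf1 (ENSMUSG00000032494.14, chr9:110768655-110775292, minus strand) encodes CRIPTO, the co-receptor for Nodal. It had 15.1 and 28.8 normalized counts in controls and 11019 and 9229.9 after tamoxifen. The log2 fold change was 8.85 (SE 0.32), with a read ratio of 447 (320 to 646).

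Among the RNA-binding members, Lin28a (ENSMUSG00000050966.11, chr4:133730641-133746173, minus strand), which blocks let-7 maturation, had 11.0 and 5.01 normalized counts in controls and 3660.0 and 3342 after tamoxifen. The log2 fold change was 8.69 (SE 0.41). Trim71 (ENSMUSG00000079259.3, chr9:114336201-114393437, minus strand), a let-7 target that represses mRNAs, had 13.7 and 2.50 normalized counts in controls, from 10 and 2 reads, and 4897 and 4298 after tamoxifen. Its log2 fold change was 9.32 (SE 0.61), and leaving out control library 1 or 2 gave 10.36 and 8.29, respectively, the widest range of the 10 genes. Both genes had fewer reads in control library 2 than in control library 1.

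L1td1 (ENSMUSG00000087166.10, chr4:98614971-98626717, plus strand), an RNA-binding protein derived from a transposon, had 20.5 and 13.8 normalized counts in controls and 9118 and 8030.1 after tamoxifen (log2 fold change 8.91, SE 0.27). Dppa5a (ENSMUSG00000060461.7, chr9:78274031-78278208, minus strand), a KH-domain protein of pluripotent and germ cells, had 15.1 and 27.5 in controls and 9024 and 6706 after tamoxifen (log2 fold change 8.51, SE 0.33). Both genes were well above the limit of 3 reads in each control library, at 11 to 22 reads.

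To order the members by level, values were expressed as normalized counts per kilobase of annotated exon. In the tamoxifen libraries Dppa5a was highest with 3102 ± 647 (SD, n = 2), followed by L1td1 with 2701 ± 242 and Sox2 with 2598 ± 115, and the library values of these neighbours overlapped. Tdgf1 came next with 2189 ± 274, below both values of Sox2 and above both values of Pou5f1, which had 1790.0 ± 225. It overlapped Nanog, which had 2129 in the first tamoxifen library where Tdgf1 had 1996 in the second. Pou5f1, Nanog (1778 ± 497) and Utf1 (1451 ± 307) could not be ordered beyond the spread of their libraries. Lin28a with 872 ± 55.9 and Sall4 with 822 ± 167 overlapped as well, and Trim71 was lowest with 493 ± 45.4. By this measure 9 of the 10 genes stood at percentile 92.8 or higher among all annotated genes of the table in both tamoxifen libraries, and Trim71 was at percentiles 88.0 and 87.7. In the control libraries Sox2 was at percentiles 58.1 and 61.5, with 67.9 and 88.2 normalized counts per kilobase, and the other 9 genes were between percentiles 9.35 and 37.0. Divided by the longest annotated transcript instead, Dppa5a stayed first (6620.0) and Trim71 last (493), while Tdgf1 moved from the 4th to the 2nd place (3407).

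**Figure D2:**
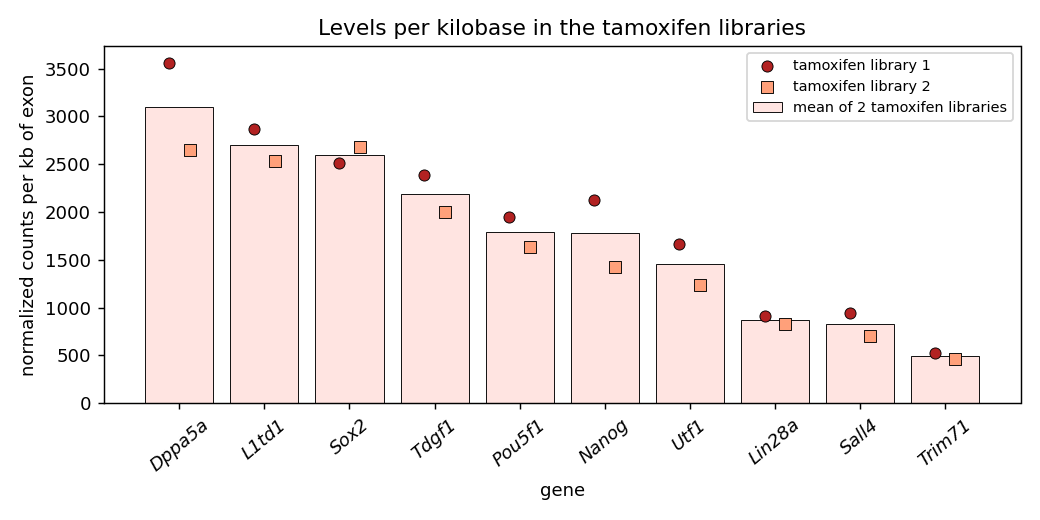
Normalized counts per kilobase of annotated exon after tamoxifen, with bars for the mean of 2 libraries and points for each library. The means fall from 3102 for Dppa5a to 493 for Trim71, with overlapping points for most neighbours.

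Within the tamoxifen group the members differed in how they were distributed between the libraries, a measure that was not used to choose them. The ratio of library 2 to library 1 was below 1 for 9 of the 10 genes, with a median of 0.837, while its median over all genes tested was 0.945. Nanog had the lowest ratio, 0.670 (95% exact interval 0.648 to 0.692, counting error only). Utf1, Dppa5a and Sall4 followed with 0.740, 0.743 and 0.749, and their intervals overlapped. Pou5f1 and Tdgf1 had nearly the same ratio, 0.837 and 0.838, and Trim71, L1td1 and Lin28a had 0.878, 0.881 and 0.913. Sox2 alone was above 1, at 1.07 (1.03 to 1.10). Per kilobase, Tdgf1 stood at 1.22 times Pou5f1 in both tamoxifen libraries, whereas Sox2 stood at 1.29 times Pou5f1 in the first and 1.64 times in the second. With 1 pair of libraries there is no test of these ratios. Other groups of genes differed between the same libraries. The median ratio was 2.11 for 12 neural stem cell and astrocyte markers, 0.490 for 12 endothelial markers, 0.735 for 10 neutrophil markers, 0.806 for 11 germ cell markers and 0.867 for 10 cell cycle genes. The part of these cell types in the members' values was not tested.

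**Figure D3:**
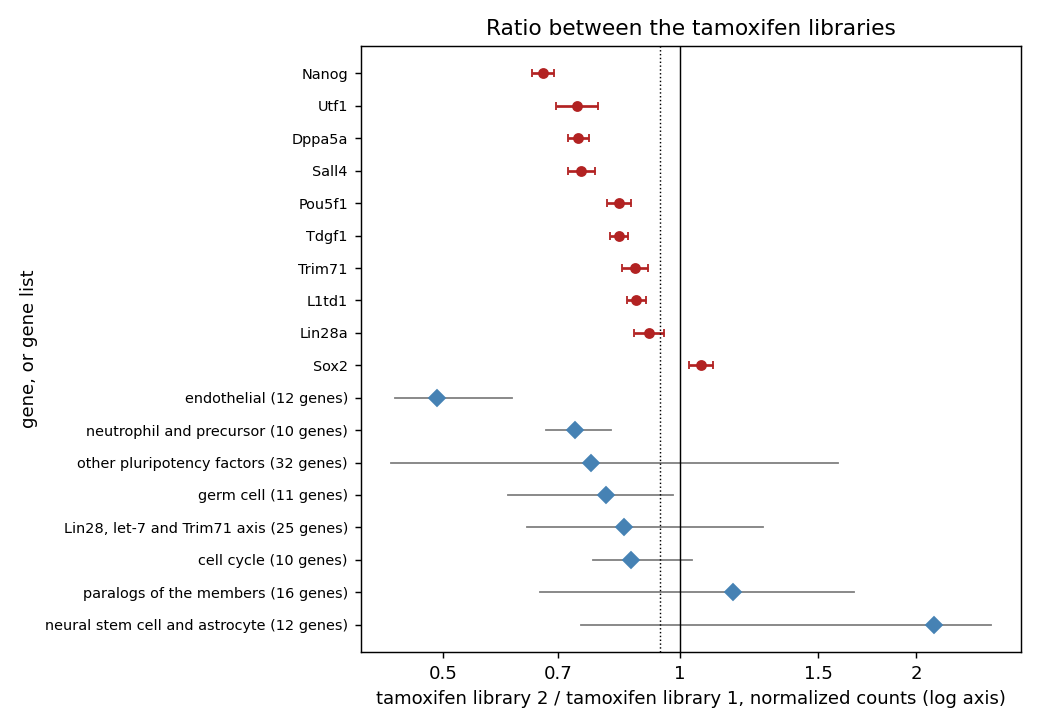
Ratio of normalized counts, tamoxifen library 2 to library 1, on a log axis. Red points are the 10 genes with 95% exact intervals on the reads, blue diamonds are medians of gene lists with a grey line for the range of the list, the solid line marks 1 and the dotted line the median of all tested genes (0.945). Nanog is lowest at 0.670 and Sox2 highest at 1.07, between the endothelial median of 0.490 and the neural median of 2.11.

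Reads of near-identical copies could be split or shared with some members. A search of every annotated transcript for at least 300 aligned bases at 90% identity or more, on the same strand, found no copy of Nanog, Pou5f1, Sox2, Sall4, Utf1, Lin28a or Trim71, 1 of L1td1, 2 of Tdgf1 and 11 of Dppa5a. The table lists 1 of the copies of Tdgf1, Tdgf1-ps1 (chr16:3548374-3548886), a processed pseudogene with 98.8% identity over 512 bases. It had 2.74 and 1.25 normalized counts in controls and 1656 and 1227 after tamoxifen, which equal 15.0% and 13.3% of the values of Tdgf1. The counts of this pair are therefore uncertain. Of the copies of Dppa5a, Gm6798 was listed with 0 reads in both controls and with 3 and 12 reads after tamoxifen, and Pigp, which has an annotated transcript with a Dppa5a-like stretch, had 582 and 572 normalized counts after tamoxifen, below its control values of 720 and 936. Sox2 lies within the long noncoding gene Sox2ot on the same strand, which had 49.3 and 45.1 normalized counts in controls and 478 and 970 after tamoxifen. How reads on such shared bases were assigned is not given in the sources used here.

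The genes that flank the members were read from the annotation, a choice made after values had been seen. Within 100 kb of the 10 genes, 46 other genes were tested, of which 21 were called higher and 6 lower, beside 28.6% and 16.0% of all genes. Around Nanog 5 of 7 were called higher. These were Slc2a3, a glucose transporter gene (105 and 168 normalized counts in controls, 33405 and 27330 after tamoxifen), Gdf3, Dppa3 and Apobec1, together with the predicted gene Gm10224. Gdf3, a Nodal-related ligand, and Dppa3, a gene of the oocyte and early embryo, are known pluripotency genes of this cluster. Gdf3 had 1.37 and 5.01 normalized counts in controls and 1194 and 843 after tamoxifen, and Dppa3 had 0 reads in both controls and 70.4 and 49.6 normalized counts after tamoxifen. Next to L1td1 and Trim71, 1 gene each was called lower, Kank4 (6201 and 6446 against 1512 and 1208 normalized counts) and Tmppe (1020.5 and 998 against 528 and 421). Next to Tdgf1, 4 of 8 were called lower, including Als2cl, and 3 were called higher, including the neutrophil granule gene Ltf.

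By likeness of pattern, measured as the root mean square difference of centred log2 values over the 4 libraries, the closest genes to Pou5f1 outside the members were AU018091 (0.100), Igf2bp1 (0.117), Crabp1 (0.117), Zfp42 (0.134) and Gata4 (0.157). Those closest to Nanog were Triml2 (0.244), Tex19.1 (0.270), Tcfl5 (0.298), Rag1 (0.310) and Fbxo15 (0.356). Sox2 had other neighbours, namely Snhg11 (0.096), Gpc1 (0.098), En2 (0.106), Bub1b (0.107) and Eme1 (0.108). Among the members the closest pair was Pou5f1 and Tdgf1 (0.129), and the most distant was Sox2 and Sall4 (2.43). With 4 libraries in 2 groups this measure mostly reflects the size of the group difference.

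Paralogs of the members, listed for their shared protein family, were mostly higher after tamoxifen. Of 16 tested, 11 were called higher and 3 lower, beside 28.6% and 16.0% of all genes, and the median log2 fold change was 4.04. The neural SOXB factors rose with Sox2. Sox1 rose from 79.4 and 96.4 to 1973 and 2751 normalized counts (log2 fold change 4.72, SE 0.26, limma, adjusted p = 1.23e-05). Sox21 rose by 3.90 (SE 0.35, limma, adjusted p = 9.15e-05), and Sox3 by 6.45 (SE 0.65) from 0 and 1 read in controls. The SALL family rose as well, with log2 fold changes of 4.68 for Sall1, 3.44 for Sall2 and 4.79 for Sall3. The ratio of tamoxifen library 2 to library 1 ranged from 0.663 to 1.67 over the 16 paralogs, with a median of 1.17, and was below 1 for 5 of them. Sall1 (1.00), Lin28b (0.863), Pou3f1 (0.699), Ooep (0.729), Trim3 and Trim32 were within the range of the members, and Trim56 was below it. Sox1 (1.39), Sox21 (1.40), Sall2 (1.52) and Sall3 (1.67) were above this range, as were Sox3, Pou2f1, Pou5f2, Trim2 and Khdc3. The difference was not tested.

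Lin28b, the paralog of Lin28a, had 0 reads in both controls and 353 and 305 normalized counts after tamoxifen, at least 83.7-fold higher, taking the mean of the 3-read limits of the control libraries. Pou3f1 (log2 fold change 5.52), Trim2 (4.18), Ooep (3.77) and Khdc3 (4.41) were also called higher. Ooep and Khdc3 are oocyte genes of the same family as Dppa5a, and Ooep lies within 100 kb of it. The call of Khdc3 rests on 33.6 and 44.6 normalized counts after tamoxifen and was lost without either of these libraries (limma, adjusted p = 0.0755 and 0.0912). In the other direction Trim3 (-1.34), Trim56 (-1.47) and Pou5f2 (-1.72) were called lower. Pou5f2 had 39.7 and 38.8 against 9.75 and 12.9 normalized counts, and its adjusted p of 0.0298 rose above 0.05 when any single library was left out (limma, 0.0577 to 0.111). Pou2f1 (0.23, limma, adjusted p = 0.263) and Trim32 (0.16, limma, adjusted p = 0.400) did not pass the test. With rescaling to equal totals both passed it on the adjusted p, at log2 fold changes of 0.70 and 0.63, and 1 paralog in place of 3 was called lower.

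The rest of the pluripotency program moved in the same direction as the members for most genes. Of 34 further factors, 32 were tested, 28 were called higher and 4 lower, beside 28.6% and 16.0% of all genes, with a median log2 fold change of 6.59. The largest was for Fgf4, a growth factor gene that OCT4 and SOX2 are known to activate, at 1.37 and 8.76 normalized counts in controls and 2941 and 2128 after tamoxifen (log2 fold change 9.02, SE 0.65, limma, adjusted p = 3.99e-05). Tex19.1, a germline and stem cell gene, had 0 reads in both controls and 568 and 460 normalized counts after tamoxifen, at least 131-fold higher. Zfp42 (REX1), a marker of the naive state, rose by 8.94 (SE 0.39, limma, adjusted p = 6.35e-06). Fgf4, Tex19.1 and Zfp42, like many of the factors called higher, had control means under 10 normalized counts. They passed the filter on low values only through the tamoxifen libraries, which fixed the direction of their difference. Without the filter, 30 factors were called higher and 4 lower. The factors called lower included Klf2 (-2.34), Tbx3 (-1.58) and Klf4. Klf2 and Klf4 are also known as flow-responsive genes of endothelium. Klf2 fell from 33406 and 26445 to 8977 and 3846 normalized counts (SE 0.37, limma, adjusted p = 0.00108), and Klf4 from 23232 and 20285 to 10357 and 5767.

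Among the other factors, Esrrb rose from 9.59 and 20.0 to 7208 and 5349 normalized counts and Tfcp2l1 from 17.8 and 46.3 to 7009 and 4626, while Otx2, a factor of the primed state that is also expressed in brain and choroid plexus, rose from 5.48 and 28.8 to 483 and 769. These 3 genes were singled out after their values had been seen. Fgf5, the defining ligand of the primed epiblast, had 0 reads in both controls and only 7.59 and 11.5 normalized counts after tamoxifen, and was not tested. Of the 32 genes tested, 29 had fewer normalized counts in tamoxifen library 2 than in library 1, with a median ratio of 0.770.

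**Figure D4:**
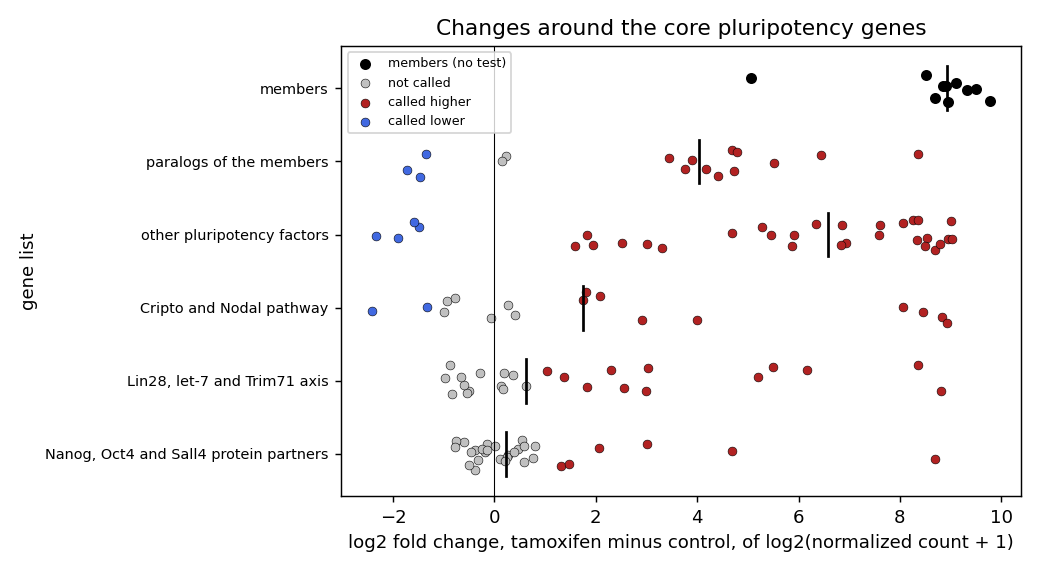
Log2 fold change, tamoxifen minus control, of log2(normalized count + 1) for the 10 members (black, no test) and for 5 gene lists, with red for genes called higher, blue for genes called lower, grey for genes not called and a black bar for the median of each list. The medians fall from 8.93 for the members to 0.23 for the protein partners.

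In the Cripto and Nodal pathway the tested ligand and inhibitor genes rose, while the Smad genes were not called. Nodal signals through activin receptors with CRIPTO as co-receptor, SMAD2 and SMAD3 carry the signal, FOXH1 brings them to DNA, and LEFTY1 and LEFTY2 are secreted inhibitors that the pathway itself induces. Of 17 genes tested, 9 were called higher and 2 lower by limma, beside 28.6% and 16.0% of all genes, and 3 were called lower by edgeR and by DESeq2. Lefty2 had 1 and 0 reads in controls and 851 and 661 normalized counts after tamoxifen, a read ratio of 1127 (95% exact interval 202 to 44530, counting error only). Lefty1 had 8.22 and 0 normalized counts in controls and 1522 and 1247 after tamoxifen, and Foxh1, with 0 and 1 read, had 682 and 408. Nodal itself rose from 83.6 and 183 to 973 and 907 normalized counts (log2 fold change 2.92, SE 0.37, limma, adjusted p = 0.000400). The receptor gene Acvr1b rose by 1.74 (SE 0.21, limma, adjusted p = 0.000280), a call that was lost without tamoxifen library 2 (limma, adjusted p = 0.0578).

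Smad2 had 3300 and 3083 normalized counts in controls and 3147 and 2926 after tamoxifen, with overlapping groups. Smad3 (log2 fold change -0.94) and Smad4 (-0.78) were lower in both tamoxifen libraries and missed the limit on size. Furin, which encodes a protease that processes Nodal, was called lower (-1.32, SE 0.19), as was Cav1 (-2.41, SE 0.23), the caveolin gene that is abundant in endothelium. Pcsk6, another protease gene of this list, was called higher (3.99, SE 0.27), from 100 and 163 to 2163 and 1929 normalized counts. The count of genes called higher fell from 9 to 5 without tamoxifen library 1 and to 4 without tamoxifen library 2, with Lefty1 among those lost (limma, adjusted p = 0.0709 and 0.0738). The count called lower was 4 without control library 2 and 1 with rescaling to equal totals.

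Around Lin28a and Trim71, the genes that rose included Lin28b and the fetal mRNA-binding genes Igf2bp1 and Igf2bp2. Of 25 genes of this axis tested, 12 were called higher and 0 lower by each of limma, edgeR and DESeq2, beside 28.6% and 16.0% of all genes by limma, while 7 were lower on limma's adjusted p alone and 7 on its unadjusted p. Igf2bp1, which encodes a fetal mRNA-binding protein, had 17.8 and 22.5 normalized counts in controls and 10746 and 8236 after tamoxifen (log2 fold change 8.81, SE 0.25, limma, adjusted p = 3.09e-06). Igf2bp2 rose by 6.17 (SE 0.32, limma, adjusted p = 1.03e-05). Igf2bp1, Lin28b and Nr6a1 hold 4, 4 and 8 matches to the let-7 seed after their coding sequences, among the highest counts of all transcripts, as does Trim71. The smallest changes called were those of Mycn (1.82), Cdc34 (1.37) and Ago2 (1.03). Cdc34 and Ago2 were lost without either tamoxifen library (limma, adjusted p = 0.0597 to 0.0857).

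The genes of the enzymes that process or degrade let-7 precursors stayed within the limit on size, and 4 of them passed the limit on the adjusted p. Tut4, a uridyltransferase that LIN28A recruits, had 3750.3 and 3119 normalized counts in controls and 3817 and 3656 after tamoxifen (log2 fold change 0.13, SE 0.16, limma, adjusted p = 0.516). Its paralog Tut7 had 9617 and 7726 normalized counts in controls and 5284 and 4385 after tamoxifen (log2 fold change -0.84, SE 0.18, limma, adjusted p = 0.00554). Dicer1 (-0.54, limma, adjusted p = 0.0232) and Dis3l2 (-0.49, limma, adjusted p = 0.0344) were lower and Drosha (0.63, limma, adjusted p = 0.0121) was higher in both tamoxifen libraries. Dgcr8 had a log2 fold change of 0.19 (limma, adjusted p = 0.337). The let-7 target Nras (-0.65) was lower in both tamoxifen libraries without being called. Egr1, an mRNA that TRIM71 is known to repress, had overlapping groups (log2 fold change -0.28, SE 0.26, limma, adjusted p = 0.372). Cdkn1a (-0.88, limma, adjusted p = 0.0246) and Mbnl1 (-0.97, limma, adjusted p = 0.00513), other genes of this axis, were lower in both tamoxifen libraries without being called. Without control library 2, 2 genes of the axis were called lower.

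The genes of nuclear proteins that bind NANOG, OCT4 and SALL4, most of them widely expressed, were mostly not called. Of 30 tested, 6 were called higher and 0 lower by each of limma, edgeR and DESeq2, beside 28.6% and 16.0% of all genes by limma. The difference from these shares was not tested. The median log2 fold change was 0.23. On limma's adjusted p alone 12 were higher and 5 lower, and 6 were lower on its unadjusted p. Those called higher were Esrrb (8.70), Sall1 (4.68), Tet1 (3.02), Parp1 (2.07), Trim28 (1.48) and Rif1 (1.32), of which Esrrb and Tet1 also belong to the pluripotency list and Sall1 to the paralogs. Rif1, a replication-timing factor, was lost without either tamoxifen library (limma, adjusted p = 0.135 and 0.107). Chd4, the motor subunit of the NuRD complex that SALL4 recruits, had 21491 and 24260 normalized counts in controls and 26903 and 27759 after tamoxifen. The groups overlapped for Zfp281, Nacc1, Mta1, Hdac1, Tcf7l1 and Thap11. With rescaling to equal totals or quantile normalization, 11 genes in place of 6 were called higher, and Nacc1 and Mta1 changed from lower to higher without passing the test. Over all genes, 5867 were called higher in the main fit, 7393 with equal totals and 4626 with quantile normalization.

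Markers of other cell types moved with the same comparison, and their values stand beside those of the members. Among all genes tested, 28.6% were called higher and 16.0% lower by limma. The leading marker of a list is the one with the highest mean normalized count, not divided by length. The table lists 6 of 9 trophoblast, 6 of 8 primitive streak and 10 of 11 endoderm markers, and the others of these lists were not analysed here. Germ cell markers, which pluripotent cells share in part, were called higher for 8 of 11 tested and lower for 1, Prdm1, and their summed normalized counts were 2479 to 3045 in controls and 4669 to 6264 after tamoxifen. Dazl led after tamoxifen with a mean of 1350.4, and Prdm1 in controls with a mean of 2609.6. Of 10 endoderm markers 8 were called higher and 2 lower, with summed counts of 25346 to 27733 in controls and 21338 to 52674 after tamoxifen, led by Dab2 in controls and by Ttr after tamoxifen. Ttr had 793 and 3108 normalized counts in controls and 7070 and 41530 after tamoxifen. It made up most of the larger sum, that of tamoxifen library 2, while the sum of tamoxifen library 1 was below both control sums. Foxa1 had 0 reads in both controls. Of 4 tested primitive streak markers 2 were called higher and 1 lower, and the summed counts stayed between 308 and 660. Mixl1, Gsc and Fgf8 had 0 reads in both controls. Of 5 tested trophoblast markers 3 were called higher, at sums of 181 to 189 and of 326 to 344, with Gata3 leading in both groups and Cdx2 and Hand1 at 0 reads in both controls.

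Neural stem cell and astrocyte markers were called higher for 11 of 12, with summed counts of 66994 to 70615 in controls and 166385 to 332101 after tamoxifen. Nes, the leading marker in controls, was called lower, and Slc1a2 led after tamoxifen. All 10 neutrophil markers were called higher, from summed counts of 233 to 301 to sums of 82691 to 111067, with S100a9 leading in both groups and Ly6g and Cebpe at 0 reads in both controls. Of 10 hematopoietic progenitor markers 5 were called higher and 3 lower, beside 28.6% and 16.0% of all genes. Their sums were 91730 to 93652 in controls and 22366 to 32418 after tamoxifen, led by Cd34 with means of 59580 and 13047. Cd34, Gata2 and Mecom were called lower, and Kit, Runx1, Myb, Meis1 and Hoxa9 were called higher. All 10 cell cycle genes were called higher, with sums of 3719 to 4501 and of 96502 to 103476, led by Pcna in controls and by Mki67 after tamoxifen. No listed marker had 0 reads in both tamoxifen libraries, in a table from which genes of low count had been removed. Their part in the levels of the members was not tested.

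**Figure D5:**
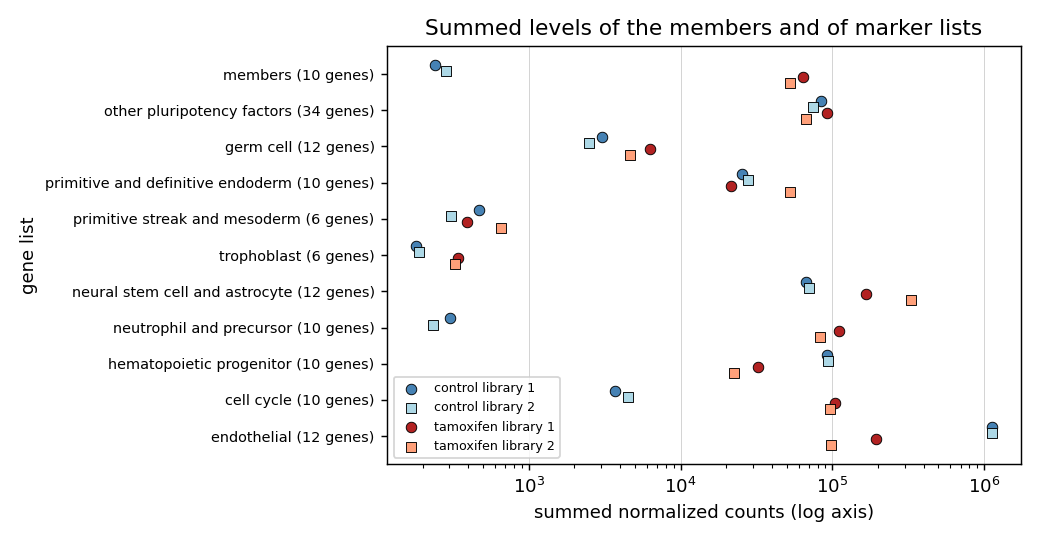
Summed normalized counts of the 10 members, of the other pluripotency factors and of 9 marker lists in each library, on a log axis. The members rise from 239.7 and 285.4 to 64166 and 52945, the neutrophil markers from 301 and 233 to 111067 and 82691, and the endothelial markers fall from 1121438 and 1118435 to 194486 and 98488.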

How the data were processed

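Per the study's methods and the labels' processing notes, the authors made stranded mRNA libraries, used STAR 2.7.10a to align and quantify reads on GRCm39, and used DESeq2 1.36.0 for normalization after removing genes of low count. The annotation release, strand setting and low-count limit are not given in the sources used here. The deposited table holds 1 signal for each gene and library, a read count that the authors had scaled by the divisor of its library. The step of each column gave back the reads, and 100% of values were whole within 0.01 of a read. Table columns are lettered C and A with a number. C was read as Ctrl, whereas A matches no letter of the labels and was taken as tamoxifen from the description of the gene set given for this work, without use of the values.

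The members, gene lists, marker lists and tests were chosen with earlier results of these data known. The main test was limma 3.58.1 (R 4.3.3, trended eBayes). It was fitted to log2(normalized count + 1), which understates changes of low genes, and it took the 20485 genes whose mean reached 10 normalized counts, with Benjamini-Hochberg adjustment over them. In every list, a gene with a control mean under 10 could enter the test only through higher tamoxifen values. A call needed both an adjusted p below 0.05 and a log2 fold change beyond 1 in either direction. An exact permutation test of 2 against 2 libraries cannot go below 0.333, and nothing in the labels separates the spread between libraries from technical spread. Intervals are 95% exact binomial intervals on reads, and they and the limit of 3 reads for a count of 0 cover counting error only. The depth of 35387438 to 49799321 reads on genes sets that limit at 2.16 to 4.11 normalized counts. Genes were matched to GENCODE M39 by symbol or identifier for 24499 of 24873. Copies were searched with blastn 2.17.0, and let-7 sequences are from RefSeq (GRCm38.p6 table). Tests were run in R and Python 3.11.15, and limma was checked on simulated data. The simulation held smaller changes, in far fewer genes than were called here. It therefore does not cover changes as large as those of the members.

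The text names all 10 members, all tested paralogs, the 3 largest rises and falls among called genes of the other lists, apart from items not reported here (and genes with overlapping groups where a list was called in 1 direction), the 5 genes most like Nanog, Pou5f1 and Sox2, and the leading markers. Klf4, Esrrb and Tfcp2l1 as pluripotency factors, Otx2, Fgf5, the Smad genes, Nodal, Nr6a1, Nras, Cdkn1a, Mbnl1, the let-7 processing enzymes and Tut7, Chd4, and the copies and neighbours were named after their values were seen. Alternatives varied the pseudocount (0.5 or 5), the filter (none, or a mean of 100) and the scaling (equal totals, or quantiles), dropped the trend or the limit on size, added the replicate number as a block, left out each library in turn, and replaced limma by edgeR 4.0.16 or DESeq2 1.42.0 fitted to the recovered reads.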

Additional observations from a re-analysis of the deposited data

How the results depend on the processing

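The limits of depth bear on the control side, where 9 of the 10 members had 1 to 23 reads per library, so that their fold changes move with the pseudocount and with 1 library. The median log2 fold change of the members, 8.93, was 8.55 with a pseudocount of 5, 9.38 with equal totals, 8.69 with quantile normalization and 8.82 to 9.05 with single libraries left out. Genes called, 9151 in all, were 5934 with a filter at a mean of 100, and 4147 to 9700 with single libraries left out, where the fits without a tamoxifen library assume that the lone library varies like the others. Equal totals changed the share of calls that were higher from 64.1% to 80.3%, and quantile normalization to 45.9%. With equal totals, 1 paralog and 1 gene of the Cripto and Nodal pathway were called lower, and 11 protein partners were called higher, as with quantile normalization. With the adjusted p alone, 12 partners were called higher and 5 lower, and 5 genes of the Cripto and Nodal pathway and 7 of the Lin28 axis were called lower. Leaving out single libraries gave 4 to 9 higher and 2 to 4 lower in the Cripto and Nodal pathway and 0 to 2 lower in the Lin28 axis. The median ratio of tamoxifen library 2 to 1 over the members, 0.837, was 0.897 with equal totals and 0.905 with quantile normalization. Where a value moved, the cause was not tested. The log2 fold changes of the members kept their sign under every alternative run. Of 46 named genes outside the members, all kept their side of the adjusted p with pseudocounts of 0.5 and 5, no filter, quantile normalization, no trend and edgeR, 45 with DESeq2 (Pou5f2 was lost) and 39 with equal totals. The deviations of library 1 of each group correlated at 0.0251, so no shift shared by replicate number was seen. With 2 libraries per group this cannot exclude that the libraries were paired. The fit with the replicate block called 9525 genes, with the same list counts.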
